A study of Mus musculus with 16 samples.

Results

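The 10 genes described here belong to the programme run by the transcription factor ATF4 and to the synthesis of serine and one-carbon units: Atf4, Atf5, Ddit3, Trib3, Chac1, Sesn2, Asns, Psat1, Phgdh and Mthfd2. They were chosen by name, and every probe whose accession matched one of these symbols was taken, which gave 13 of the 41174 probes on the array. All 13 were among the 32403 probes tested, and the 10 genes were among 15178 tested genes of 17178 with a probe. The measurements came from quadriceps muscle of mice on 1-colour Agilent arrays, 1 array per animal and 4 animals in each of 4 groups. Animals of the KO dex group carried the Klf15 knockout and received 1 intraperitoneal dose of 2 mg/kg dexamethasone, a synthetic glucocorticoid, 8 h before sampling. The KO vehicle group carried the same knockout and received vehicle. The WT dex group and the WT vehicle group were wild type for Klf15 and were treated in the same ways. The sources used here do not give the kind of Klf15 allele or the age, sex and strain of the mice. The study asked how muscle transcripts respond to glucocorticoids and how far this depends on Klf15. The comparison of interest for these genes was whether they differ in muscle whose enzymes of amino acid breakdown are low.

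ATF4 is made when the kinases of the integrated stress response phosphorylate the initiation factor eIF2 alpha, which slows general translation and favours translation of the Atf4 message. ATF4 then raises genes for amino acid synthesis, uptake and tRNA charging, together with feedback genes of the stress response. In skeletal muscle this programme is known from mitochondrial disease, fasting and muscle wasting. Klf15 encodes a zinc-finger factor that is induced by glucocorticoids and is known to raise genes of amino acid breakdown in muscle.

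ATF4 binds the C/EBP-ATF response element, whose letters are TGATGNAAN. Searched on both strands of a window from 250 bases before to 50 bases after each transcript start, this motif was found at 3 of the 10 genes, beside 4.50% of the 27025 genes with a RefSeq promoter of GRCm38.p6. In Asns it began at position -23 and in Chac1 at position -194, counted from the start, and in Trib3 at position 14 within the transcript. Asns, Chac1 and Trib3 are shown because they hold the match, which is set in capitals (5′ to 3′ on the gene's strand). Asns upstream is chr6:7693210-7693459 on the minus strand, Chac1 upstream is chr2:119350992-119351241 on the plus strand and the Trib3 site is chr2:152344029-152344057 on the minus strand. The glucocorticoid response element, searched as its palindromic consensus, had no match in the same windows of the 10 genes, and was found at 0.537% of all genes. A match is a description of letters and not a measurement of binding.
Asns upstream: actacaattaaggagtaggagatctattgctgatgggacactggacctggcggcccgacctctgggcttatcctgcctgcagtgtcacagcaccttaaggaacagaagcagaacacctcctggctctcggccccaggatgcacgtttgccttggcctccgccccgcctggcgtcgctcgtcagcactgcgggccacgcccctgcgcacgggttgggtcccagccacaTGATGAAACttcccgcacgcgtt
Chac1 upstream: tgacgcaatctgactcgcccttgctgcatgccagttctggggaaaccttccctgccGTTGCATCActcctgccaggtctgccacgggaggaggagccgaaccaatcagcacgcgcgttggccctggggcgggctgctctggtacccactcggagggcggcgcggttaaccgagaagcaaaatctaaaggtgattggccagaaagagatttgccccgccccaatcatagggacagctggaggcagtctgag
Trib3 site: ttagctcaggTTTACATCAgccgggcggg

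Levels are log2 intensities relative to each array's 75th percentile, and a gene is read by its brightest probe. Differences are log2 differences with their standard error (SE) from 1 limma fit to all 16 arrays, and a call means a Benjamini-Hochberg adjusted p under 0.05 over all probes. The scanner software marked 66.3% to 80.6% of an array's spots as well above background, and for the 13 probes of the 10 genes it did so on all 16 arrays. All 12 markers of skeletal muscle fibres were well above background on every array. The first principal component held 33.6% of the variance and set apart 4 arrays, the 3 arrays of 1 slide (KO dex replicate 2, KO vehicle replicate 1 and WT vehicle replicate 3) and WT dex replicate 1. WT dex replicate 3, alone on its slide, was the only array scanned on another day and had the lowest 75th percentile intensity, 537 where the others had 717 to 1133. Neutrophil markers stood highest on KO dex replicate 1 and WT dex replicate 3. Klf15 was at 0.26 to 0.68 in KO dex and -1.24 to -0.07 in KO vehicle muscle, against 3.99 to 4.81 in WT dex and 2.84 to 3.81 in WT vehicle muscle, so that no KO array overlapped a WT array. The sources used here do not say where this probe lies relative to the targeted part of the gene. Fkbp5, a glucocorticoid receptor target, was higher with dexamethasone by 2.74 ± 0.16 (SE) in KO and by 2.98 ± 0.16 (SE) in WT muscle by its brightest probe, while its probe A_52_P481493 gave 1.31 in KO and 0.29 (not called) in WT.

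**Figure D1:**
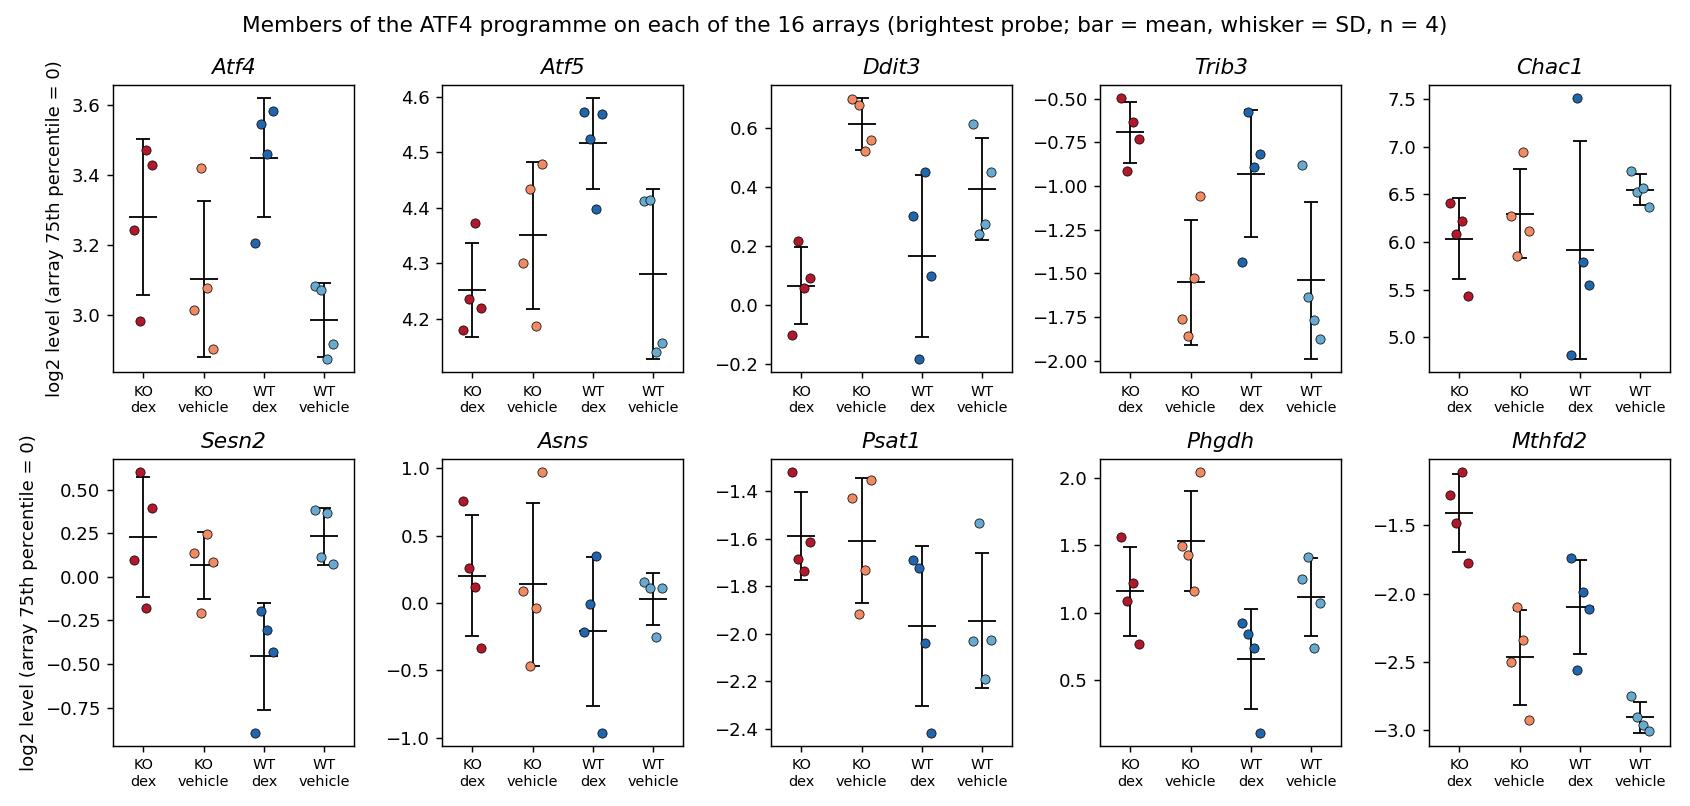
Log2 level of each of the 10 genes (vertical axis, relative to the array's 75th percentile, own scale in each panel) on every array of the 4 groups. Points are arrays, bars are means and whiskers are SD (n = 4); Mthfd2 is higher on dexamethasone arrays in both genotypes, Sesn2 is low in WT dex, and Ddit3 is low in KO dex.

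Transcripts of a share of the amino acid breakdown enzymes were lower in KO muscle, while none of the 10 ATF4 programme genes was called between the genotypes. Of 28 tested enzymes of amino acid breakdown, 9 were lower in KO than in WT under vehicle (0.207% of all probes were lower), 15 under dexamethasone (1.00%) and 15 averaged over treatments (0.947%). The others were not called, and none of the 28 was called higher. Prodh, the first enzyme of proline breakdown, differed by -3.05 ± 0.11 (SE) under vehicle and by -3.41 ± 0.11 (SE) under dexamethasone. Bcat2, the mitochondrial branched-chain aminotransferase, differed by -1.16 ± 0.19 (SE) and by -2.21 ± 0.19 (SE) by its brightest probe, while its probe A_52_P393781 gave -0.58 and -0.57, neither of them called. Aldh6a1, which acts late in valine breakdown, differed by -2.03 ± 0.09 (SE) and by -2.24 ± 0.09 (SE). Against that background, 0 of the 10 members were called for KO against WT under vehicle (0.235% of all probes), 0 under dexamethasone (2.79% of all probes) and 0 averaged over treatments (1.62% of all probes). Higher calls alone made up 0.0278%, 1.79% and 0.673% of all probes in these comparisons. At an unadjusted p under 0.05 limma gave 1 member under vehicle (7.70% of all probes), 3 under dexamethasone (15.4%) and 3 for the average (12.1%). The median difference of the 10 members was 0.11 under vehicle, 0.31 under dexamethasone and 0.19 averaged, beside -0.05, 0.05 and 0.00 for all probes. These comparisons share no arrays between treatments, and the average uses the same arrays again.

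The transcription factors of the programme did not pass the test between genotypes. Atf4, the central factor, was at 3.24, 2.98, 3.47 and 3.43 in KO dex and at 3.01, 3.42, 3.08 and 2.91 in KO vehicle muscle, against 3.21, 3.55, 3.46 and 3.58 in WT dex and 3.08, 3.07, 2.88 and 2.92 in WT vehicle muscle. KO and WT arrays overlapped under both treatments, and the KO minus WT difference was 0.12 (95% interval -0.18 to 0.41) under vehicle and -0.17 (-0.46 to 0.12) under dexamethasone. Since ATF4 is regulated mainly by translation, its message level is not a measure of its protein. Atf5, a related factor of the mitochondrial stress response, was at 4.18, 4.24, 4.37 and 4.22 in KO dex muscle, against 4.57, 4.52, 4.40 and 4.57 in WT dex muscle. These 2 sets of arrays did not overlap, which held for 4.09% of all probes in this direction, and the difference of -0.26 ± 0.10 (SE) was not called (adjusted p = 0.186). Under vehicle Atf5 differed by 0.07 ± 0.10 (SE). Ddit3, which encodes the pro-apoptotic factor CHOP, had overlapping KO and WT arrays under both treatments, with differences of 0.22 ± 0.13 (SE) under vehicle and -0.10 ± 0.13 (SE) under dexamethasone.

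Among the stress effectors, Sesn2 had the largest difference between the genotypes under dexamethasone and on average, while under vehicle that of Chac1 was larger. The KO and WT arrays of Sesn2 were apart under dexamethasone and overlapped under vehicle. Sesn2, a leucine-binding inhibitor of mTORC1, was at 0.10, 0.60, -0.18 and 0.40 in KO dex muscle, against -0.89, -0.20, -0.31 and -0.43 in WT dex muscle. All 4 KO arrays lay above all 4 WT arrays, which held for 4.96% of all probes in this direction, but the difference of 0.69 ± 0.18 (SE) was not called (adjusted p = 0.0676). It was called without KO dex replicate 3 (0.82, adjusted p = 0.0409), and a fit with slide as a fixed block gave 0.29 (adjusted p = 0.398). On the only slide with a KO dex and a WT dex array it differed by 0.25. Under vehicle Sesn2 was at 0.14, -0.21, 0.24 and 0.09 in KO muscle, against 0.38, 0.11, 0.37 and 0.07 in WT muscle, a difference of -0.17 ± 0.18 (SE) with overlapping groups. Trib3, a pseudokinase that restrains ATF4, differed by -0.01 ± 0.24 (SE) under vehicle and by 0.24 ± 0.24 (SE) under dexamethasone. Chac1, a glutathione-degrading enzyme, differed by -0.25 ± 0.44 (SE) under vehicle and by 0.12 ± 0.44 (SE) under dexamethasone, with 95% intervals of -1.20 to 0.70 and -0.83 to 1.07.

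The 4 synthesis enzymes each had a higher mean in KO than in WT muscle under both treatments, and none was called. This direction depended on the settings, since normexp, a model-based background correction, gave Mthfd2 -0.20 under vehicle and -0.065 averaged and Psat1 -0.062 under dexamethasone and -0.0086 averaged, and Asns was at -0.17 under vehicle without KO vehicle replicate 4 and at -0.020 with a fat cell marker level as a covariate. Their median difference was 0.38 under vehicle, 0.46 under dexamethasone and 0.41 averaged. No member had all 8 KO arrays above all 8 WT arrays (0.0401% of all probes did). Phgdh, the first enzyme of serine synthesis, was at 1.56, 1.08, 1.22 and 0.77 in KO dex and at 1.50, 1.43, 1.16 and 2.05 in KO vehicle muscle, against 0.92, 0.84, 0.74 and 0.11 in WT dex and 1.25, 1.41, 0.74 and 1.07 in WT vehicle muscle. The KO arrays overlapped the WT arrays under both treatments, and the average difference was 0.46 ± 0.17 (SE, adjusted p = 0.235). The other probes of Phgdh gave 0.46 ± 0.20 (SE, adjusted p = 0.375) and 0.81 ± 0.22 (SE, adjusted p = 0.0992). On the last of these (A_52_P661606) the KO vehicle arrays, at -1.40, -1.60, 0.10 and -1.05, all lay above the WT vehicle arrays, at -1.90, -1.86, -2.20 and -2.25, as held for 2.95% of all probes. Its difference of 1.07 ± 0.31 (SE) under vehicle had an adjusted p of 0.305.

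Psat1, the next enzyme of serine synthesis, was at -1.32, -1.69, -1.73 and -1.61 in KO dex and at -1.43, -1.92, -1.73 and -1.35 in KO vehicle muscle, against -1.69, -1.72, -2.04 and -2.42 in WT dex and -2.03, -1.54, -2.19 and -2.03 in WT vehicle muscle. The groups overlapped under both treatments, and the average difference was 0.36 ± 0.13 (SE, adjusted p = 0.26). Asns, which makes asparagine, differed by 0.26 ± 0.23 (SE, adjusted p = 0.834) on average. Mthfd2, a mitochondrial folate enzyme that feeds one-carbon units to purine synthesis, was at -1.28, -1.48, -1.11 and -1.77 in KO dex and at -2.50, -2.10, -2.34 and -2.92 in KO vehicle muscle, against -1.74, -2.56, -1.99 and -2.11 in WT dex and -2.75, -2.90, -2.96 and -3.00 in WT vehicle muscle. Under dexamethasone the lowest KO array lay just below the highest WT array, and under vehicle KO vehicle replicate 4 lay among the WT arrays. Mthfd2 differed by 0.44 ± 0.20 (SE, adjusted p = 0.637) under vehicle, by 0.69 ± 0.20 (SE, adjusted p = 0.0945) under dexamethasone and by 0.56 ± 0.14 (SE, adjusted p = 0.0698) on average. The average was called without KO vehicle replicate 4 (0.64, adjusted p = 0.0362) and without WT dex replicate 1 (0.62, adjusted p = 0.046).

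**Figure D2:**
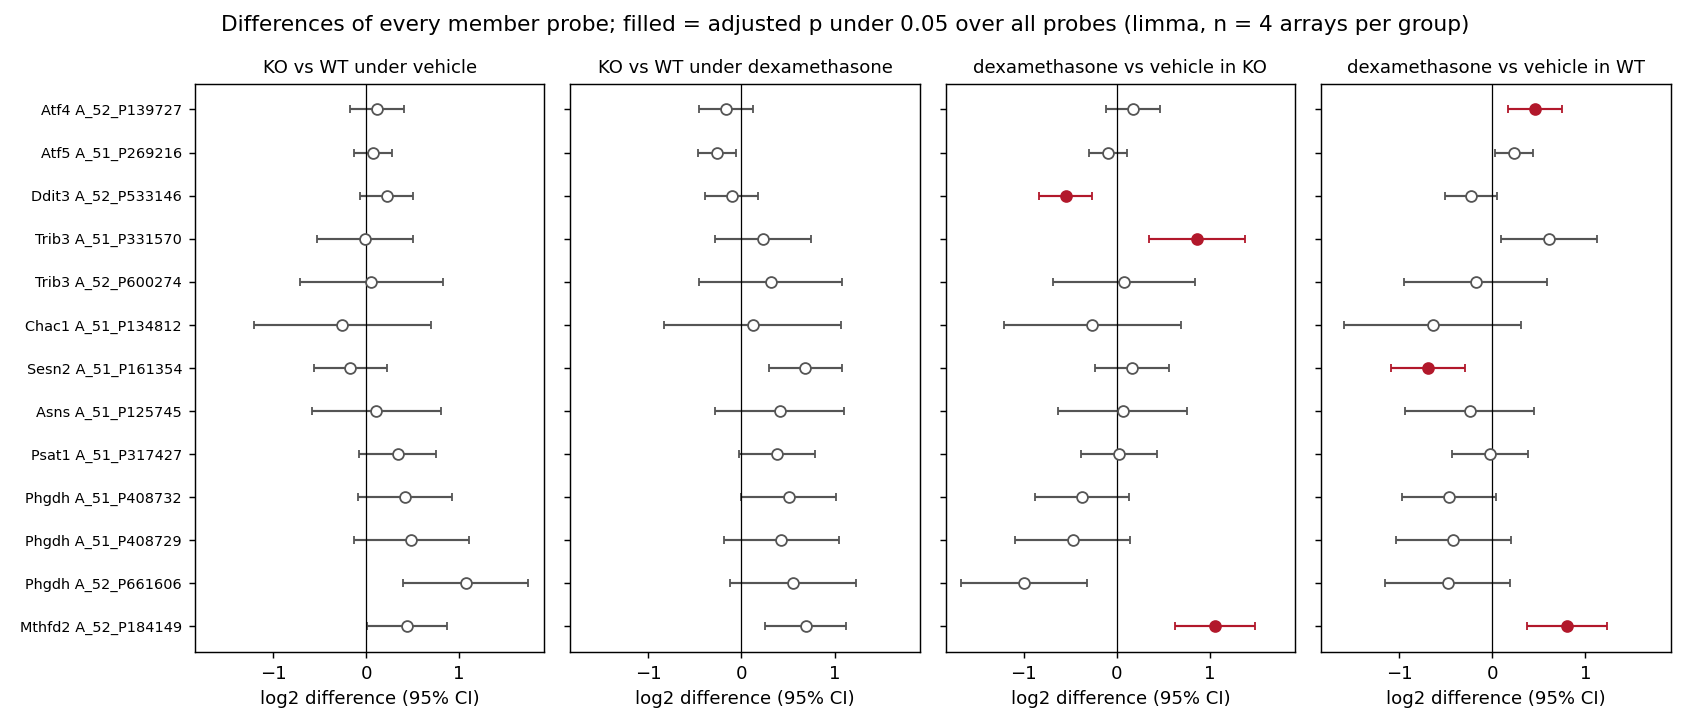
Log2 difference of each of the 13 probes (points, with 95% intervals) in 4 comparisons, on a shared horizontal axis. Filled red points passed an adjusted p of 0.05 over all probes; no point is filled in the KO against WT panels, and 3 are filled in each dexamethasone panel.

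Slide gave further values for the enzymes that leaned towards KO. With slide as a random block, Phgdh had an average KO minus WT difference of 0.52 (adjusted p = 0.0474) and Mthfd2 one of 0.56 (adjusted p = 0.0245), and both were called, as were the other 2 probes of Phgdh (0.57 and 0.87). Calls rose over the whole array in this setting, with 1570 of 32403 probes called for this comparison in place of 525. With slide as a fixed block no member was called between genotypes. Within the slides that held both vehicle groups, Phgdh differed by 0.63, -0.09 and 0.76, Psat1 by 0.18, 0.30 and 0.76, and Mthfd2 by -0.02, 0.41 and 0.46. Asns differed there by 0.86, -0.20 and 0.34. Each of these values compares 1 KO array with 1 WT array. On the slide that held both dexamethasone groups, Phgdh differed by 1.11, Psat1 by 0.68, Mthfd2 by 1.00 and Asns by 1.08. These values compare 1 array with 1 array, KO dex replicate 3 and WT dex replicate 4. The latter deviated from its group mean by -0.55 for Phgdh, -0.45 for Psat1 and -0.75 for Asns, and for Mthfd2 it lay within the range of its group.

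Asns, Psat1 and Phgdh moved together from animal to animal within the groups, and fat cell markers moved with them. After the group means were removed, Pearson's r over the 16 arrays was 0.83 between Asns and Phgdh (Spearman's rho 0.85), 0.79 between Psat1 and Phgdh (rho 0.79) and 0.65 between Asns and Psat1 (rho 0.66). Without the 2 arrays farthest from the median these values were 0.71, 0.70 and 0.60. Over all 45 pairs of members the median r was 0.02, with a range from -0.60 to 0.83. These points share slides and scaling, and each r is a description. The median level of the 6 adipocyte markers (Adipoq, Plin1, Cfd, Cidec, Lep and Retn), taken in the same way, had an r of 0.91 with Phgdh, 0.82 with Psat1, 0.67 with Asns and -0.09 with Mthfd2. For the 10 other marker lists r with Phgdh lay between -0.55 and 0.55, with Psat1 between -0.33 and 0.58, and with Asns between -0.67 and 0.68. For Asns the fat cell value was therefore not particular, since r was 0.68 with neutrophil, 0.67 with erythroid and -0.67 with macrophage markers.

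All 6 adipocyte markers were well above background on every array, and none was at 0. Their summed level, in units of the array's 75th percentile, was 112 to 256 in KO dex and 98.1 to 253 in KO vehicle muscle, against 74.1 to 198 in WT dex and 82.2 to 151 in WT vehicle muscle. None of the 6 was called for KO against WT under vehicle (0.235% of all probes), under dexamethasone (2.79%) or averaged (1.62%). With the adipocyte level as a covariate, an alternative added after these values were seen, the average KO minus WT difference was 0.27 for Phgdh (adjusted p = 0.195), 0.22 for Psat1 (adjusted p = 0.373) and 0.06 for Asns (adjusted p = 0.986). For Mthfd2 it was 0.58 (adjusted p = 0.115), beside 0.56 without the covariate. In whole muscle, fewer cells of a type and less RNA per cell cannot be told apart.

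**Figure D3:**
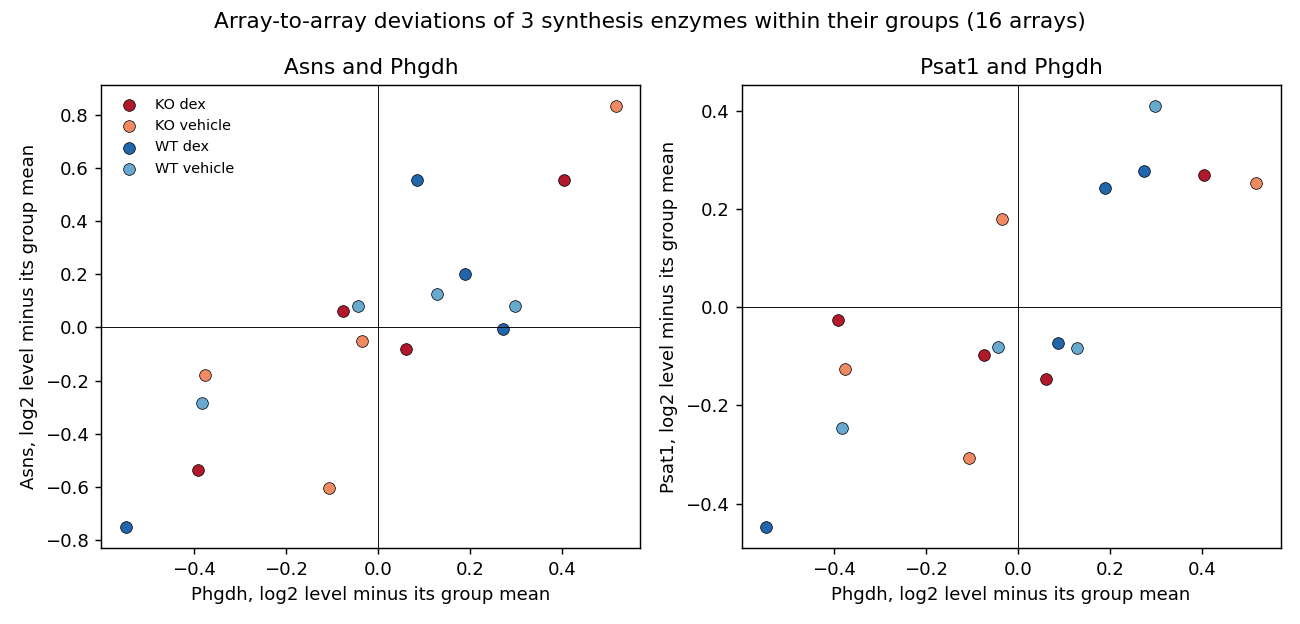
Deviation of Asns (left) and Psat1 (right) from their group means against that of Phgdh, in log2 units, for the 16 arrays. Each point is 1 array, coloured by group; KO vehicle replicate 4 is high in all 3 genes for its group and WT dex replicate 4 low, while WT dex replicate 1 is high in Phgdh and near its group mean in Asns.

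Dexamethasone raised Mthfd2 in both genotypes, while the other calls differed by gene. In KO muscle 3 of 10 members were called (10.4% of all probes), with Mthfd2 and Trib3 higher (5.20% of all probes were higher) and Ddit3 lower (5.21% were lower). In WT muscle 3 of 10 were called (12.0% of all probes), with Mthfd2 and Atf4 higher (5.35% were higher) and Sesn2 lower (6.60% were lower). The groups of the called members did not overlap in either genotype, which held for 8.15% of all probes that were higher and 7.68% that were lower in KO, and for 8.10% and 10.1% in WT. The median difference of the 10 members was 0.04 in KO and -0.12 in WT muscle, beside 0.05 and -0.07 for all probes.

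Mthfd2 was higher on dexamethasone by 1.06 ± 0.20 (SE, 2.08-fold, adjusted p = 0.00388) in KO muscle and by 0.80 ± 0.20 (SE, 1.75-fold, adjusted p = 0.0183) in WT muscle. All 4 dexamethasone arrays lay above all 4 vehicle arrays of the same genotype, by the array values given above. In KO muscle the call was kept in each of the 16 fits that left out 1 array, with differences of 0.90 to 1.18 and adjusted p from 0.00212 to 0.0155, and Mthfd2 differed by 1.65, 0.56 and 1.02 within the 3 slides that held both KO groups. In WT muscle it was lost without WT dex replicate 1 (0.68, adjusted p = 0.0567), and Mthfd2 differed by 0.44 on the 1 slide with both WT groups. With slide as a fixed block it differed by 1.08 (adjusted p = 0.0181) in KO and by 0.40 (adjusted p = 0.416) in WT muscle. In that fit the WT groups are compared directly on the 1 slide that holds both, and indirectly through slides shared with KO arrays.

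Trib3 was at -0.50, -0.91, -0.63 and -0.73 in KO dex muscle, against -1.76, -1.86, -1.53 and -1.06 in KO vehicle muscle. The KO groups did not overlap and differed by 0.86 ± 0.24 (SE, adjusted p = 0.0357). The call was lost without any 1 of 6 arrays (KO dex replicates 1, 3 and 4 and KO vehicle replicates 1, 2 and 3), with adjusted p from 0.0705 to 0.108. Within slides Trib3 differed by 0.56, 0.80 and 0.85, and with slide as a fixed block by 0.79 (adjusted p = 0.0899). The other Trib3 probe (A_52_P600274) differed by 0.08 ± 0.36 (SE, adjusted p = 0.945), so the probes of Trib3 disagreed. In WT muscle Trib3 was at -1.43, -0.58, -0.89 and -0.82 under dexamethasone, against -0.88, -1.64, -1.77 and -1.88 under vehicle. WT dex replicates 1 and 3 and WT vehicle replicate 1 lay in the range of the other group, and the difference was 0.61 ± 0.24 (SE, adjusted p = 0.122). Without WT vehicle replicate 1 it was 0.83 and called (adjusted p = 0.0301). It was also called in 3 of 14 other settings, namely median scaling, the deposited log2 values and slide as a random block.

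Ddit3 was at -0.10, 0.22, 0.06 and 0.09 in KO dex muscle, against 0.70, 0.68, 0.52 and 0.56 in KO vehicle muscle. All KO dex arrays lay below all KO vehicle arrays, and Ddit3 fell by 0.55 on the log2 scale (SE 0.13, adjusted p = 0.0162). The adjusted p was 0.0503 without KO vehicle replicate 1 and 0.0506 without KO dex replicate 1. Within slides Ddit3 differed by -0.66, -0.43 and -0.48, and with slide as a fixed block by -0.55 (adjusted p = 0.0404). In WT muscle Ddit3 was at 0.30, -0.18, 0.45 and 0.10 under dexamethasone, against 0.62, 0.24, 0.28 and 0.45 under vehicle. These groups overlapped, and the difference was -0.23 ± 0.13 (SE, adjusted p = 0.308).

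Atf4 was higher in WT dex than in WT vehicle muscle by 0.46 ± 0.14 (SE, adjusted p = 0.0409), and all 4 dexamethasone arrays lay above all 4 vehicle arrays. This call was lost without any 1 of 9 arrays (WT dex replicates 2, 3 and 4, all 4 WT vehicle replicates, KO dex replicate 1 and KO vehicle replicate 3), with adjusted p from 0.0527 to 0.0992. On the shared WT slide Atf4 differed by 0.63, and with slide as a fixed block by 0.50 (adjusted p = 0.11). In KO muscle Atf4 differed by 0.18 ± 0.14 (SE, adjusted p = 0.539), with overlapping groups. Atf5 differed by 0.24 ± 0.10 (SE, adjusted p = 0.134) in WT and by -0.10 ± 0.10 (SE) in KO muscle.

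Sesn2 fell by 0.69 on the log2 scale in WT dex against WT vehicle muscle (SE 0.18, adjusted p = 0.0252), and the 4 dexamethasone arrays given above all lay below the 4 vehicle arrays. The call was lost without WT dex replicate 1 (-0.54, adjusted p = 0.072), without WT vehicle replicate 1 (-0.64, adjusted p = 0.0717) and without WT vehicle replicate 3 (-0.65, adjusted p = 0.0624). On the shared WT slide Sesn2 differed by -0.27, and with slide as a fixed block by -0.23 (adjusted p = 0.373). In KO muscle Sesn2 differed by 0.16 ± 0.18 (SE, adjusted p = 0.716). Chac1 spread widely in WT dex muscle, at 4.81, 7.51, 5.79 and 5.55, against 6.75, 6.53, 6.56 and 6.36 in WT vehicle muscle. The WT dex arrays lay on both sides of the vehicle arrays, and the difference was -0.64 ± 0.44 (SE, adjusted p = 0.398). Without WT dex replicate 2 it was -1.17 and called (adjusted p = 0.0237), and with slide as a fixed block it was 0.094 (adjusted p = 0.956).

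The synthesis enzymes other than Mthfd2 were not called with dexamethasone. Phgdh differed by -0.38 ± 0.24 (SE, adjusted p = 0.42) in KO and by -0.47 ± 0.24 (SE, adjusted p = 0.236) in WT muscle. Its probe A_52_P661606 differed by -0.99 ± 0.31 (SE, adjusted p = 0.0624) in KO muscle, and by -1.20 (adjusted p = 0.0377) without KO vehicle replicate 2. With the adipocyte level as a covariate Phgdh differed by -0.38 (adjusted p = 0.0499) in KO and by -0.34 (adjusted p = 0.0785) in WT muscle. Psat1 differed by 0.02 ± 0.19 (SE) in KO and by -0.02 ± 0.19 (SE) in WT muscle. Asns was at 0.76, 0.26, 0.12 and -0.33 in KO dex and at 0.09, -0.46, -0.04 and 0.97 in KO vehicle muscle, against -0.22, -0.01, 0.35 and -0.96 in WT dex and 0.16, 0.11, -0.25 and 0.11 in WT vehicle muscle. All 4 groups of Asns overlapped, and dexamethasone minus vehicle was 0.06 ± 0.32 (SE) in KO and -0.24 ± 0.32 (SE) in WT muscle.

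The dexamethasone response of the members was not shown to depend on genotype. No member and no probe of the array was called for the interaction (0% of all probes), and limma gave 2 members, Sesn2 and Atf5, at an unadjusted p under 0.05, beside 12.9% of all probes. The interaction was 0.85 ± 0.26 (SE, adjusted p = 0.198) for Sesn2 and -0.33 ± 0.13 (SE, adjusted p = 0.327) for Atf5. It was 0.25 ± 0.28 (SE, adjusted p = 0.766) for Mthfd2, 0.25 ± 0.34 (SE, adjusted p = 0.822) for Trib3, -0.28 ± 0.19 (SE, adjusted p = 0.556) for Atf4 and -0.32 ± 0.19 (SE, adjusted p = 0.488) for Ddit3.

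Other cell markers also differed with dexamethasone. The summed level of the 10 neutrophil markers was 3.76 to 106.98 in KO dex against 0.458 to 0.658 in KO vehicle muscle, and 3.60 to 255 in WT dex against 0.312 to 0.795 in WT vehicle muscle. Between 3 and 10 of these markers were well above background on an array. Of 9 tested, 1 was called higher with dexamethasone in KO (5.20% of all probes) and 1 in WT (5.35%). The median level of the 10 markers overlapped between treatments. It was -7.02 to 1.53 in KO dex against -6.48 to -5.14 in KO vehicle muscle. In WT muscle it was -7.04 to 2.69 under dexamethasone against -6.41 to -5.08 under vehicle. The 9 measured macrophage markers summed to 7.81 to 15.2 in KO dex against 10.1 to 13.5 in KO vehicle muscle, and to 7.55 to 10.2 in WT dex against 11.6 to 17.1 in WT vehicle muscle. None of the 9 was called with dexamethasone in KO (10.4% of all probes) and 4 were lower in WT (6.60% of all probes). The 6 endothelial markers summed to 20.2 to 23.2 in KO dex against 22.1 to 28.8 in KO vehicle muscle, and to 16.7 to 17.4 in WT dex against 20.3 to 25.3 in WT vehicle muscle. Of these 6, 3 were lower with dexamethasone in KO muscle (5.21% of all probes) and 1 in WT muscle (6.60%). Without KO dex replicate 1 and WT dex replicate 3, the 2 arrays with the highest neutrophil sums, Mthfd2 differed by 1.01 (adjusted p = 0.0191) in KO and by 0.77 (adjusted p = 0.0573) in WT muscle, Sesn2 by -0.74 (adjusted p = 0.0445) and Atf4 by 0.46 (adjusted p = 0.0975) in WT muscle, and Trib3 by 0.79 (adjusted p = 0.112) and Ddit3 by -0.49 (adjusted p = 0.0357) in KO muscle. The part of macrophages and endothelium in these results was not tested.

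Further genes of the ATF4 programme were followed with lists. In these lists some genes are given in 1 genotype only, as the naming rule selected them. No listed gene was called for the interaction, so such a value does not show a response limited to that genotype. Of 23 other ATF4 targets, dexamethasone raised 4 and lowered 1 in KO muscle (5.20% and 5.21% of all probes) and raised 7 and lowered none in WT muscle (5.35% and 6.60%). Stc2, a secreted glycoprotein, was higher by 3.31 ± 0.29 (SE) in KO and by 3.01 ± 0.29 (SE) in WT muscle. Eif4ebp1, a translation repressor, was higher by 0.65 ± 0.18 (SE) in KO and by 0.90 ± 0.18 (SE) in WT muscle. Ddit4, an mTORC1 inhibitor, rose by 1.89 ± 0.38 (SE) in KO muscle. Herpud1, an endoplasmic reticulum degradation factor, was higher by 0.64 ± 0.14 (SE) in KO and by 0.51 ± 0.14 (SE) in WT muscle. Cebpb, a partner of ATF4, rose by 1.19 ± 0.21 (SE) in WT muscle. Cth, the cystathionine-cleaving enzyme, rose by 1.53 ± 0.21 (SE) in WT muscle, and in KO against WT muscle it differed by -3.69 ± 0.21 (SE) under vehicle and by -5.58 ± 0.21 (SE) under dexamethasone. Ddit4 and Cebpb are also known to respond to glucocorticoids in other settings, and which factor acted here was not tested.

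Upstream, 2 of 10 eIF2 alpha kinases and sensors were called in each genotype with dexamethasone, beside 10.4% of all probes in KO and 12.0% in WT, so that this count is near the background. Eif2ak4, the kinase GCN2 that senses uncharged tRNA, was higher by 0.61 ± 0.13 (SE) in KO and by 0.50 ± 0.13 (SE) in WT muscle. Eif2ak1, the haem-regulated kinase, fell by 0.43 on the log2 scale (SE 0.10) in KO muscle, and Ppp1r15a, a phosphatase subunit that ends the response, rose by 0.75 ± 0.23 (SE) in WT muscle. Of 9 tested amino acid transporters, 2 rose in KO muscle (5.20% of all probes), and 2 rose (5.35%) and 1 fell (6.60%) in WT muscle. Slc38a2, a glutamine carrier, was higher by 0.96 ± 0.23 (SE) in KO and by 0.85 ± 0.23 (SE) in WT muscle, while the glycine carrier Slc6a9 fell by 0.71 on the log2 scale (SE 0.16) in WT muscle. Between genotypes 1 transporter was called, the cationic amino acid carrier Slc7a1, which differed by -0.33 ± 0.06 (SE) in KO against WT averaged over treatments (0.947% of all probes were lower). None of 19 cytosolic aminoacyl-tRNA synthetases, which load tRNAs with amino acids, was called by limma for dexamethasone in either genotype. At an unadjusted p under 0.05 limma gave 2 in KO (21.8% of all probes) and 3 in WT (25.5%). None was called for KO against WT either. Here limma gave 1 under vehicle (7.7% of all probes), 5 under dexamethasone (15.4%) and 6 averaged (12.1%) at an unadjusted p under 0.05. Under dexamethasone the KO minus WT differences of the 19 synthetases all lay below 0, with a median of -0.18 beside 0.05 for all probes. Under vehicle they lay between -0.28 and 0.19, with a median of -0.09 beside -0.05. Averaged over treatments, which uses the dexamethasone arrays again, they all lay below 0, with a median of -0.10 beside 0.00. The differences of this list were read with the 75th percentile scaling only.

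Among 21 other enzymes of serine, glycine and folate metabolism, 2 were lower in KO than in WT muscle under dexamethasone (1.00% of all probes) and 2 averaged over treatments (0.947%). They were the same genes in both comparisons, which share the dexamethasone arrays. Aldh1l1, the cytosolic formyltetrahydrofolate dehydrogenase, differed by -1.31 ± 0.26 (SE) under dexamethasone, and Mthfd1, the cytosolic folate enzyme, by -0.47 ± 0.09 (SE). With dexamethasone Aldh1l1 rose by 1.04 ± 0.26 (SE) in WT muscle, and Slc25a32, the mitochondrial folate carrier, by 0.60 ± 0.11 (SE) in KO muscle. Of 17 genes of the IRE1 and ATF6 arms of the unfolded protein response, 1 fell in KO muscle (5.21% of all probes), and 1 rose (5.35%) and 2 fell (6.60%) in WT muscle with dexamethasone. In KO against WT under dexamethasone 1 was called (1.79% of all probes were higher), the co-chaperone Dnajc3, which was higher by 0.41 ± 0.08 (SE). Pdia4, a protein disulphide isomerase, fell by 0.59 on the log2 scale (SE 0.10) in KO and by 0.36 (SE 0.10) in WT muscle. None of 7 genes of the mitochondrial unfolded protein response was called by limma with dexamethasone. At an unadjusted p under 0.05 limma gave 0 in KO (21.8% of all probes) and 1 in WT (25.5%). In KO against WT averaged over treatments 1 was called lower (0.947% of all probes), the chaperonin Hspd1, which differed by -0.23 ± 0.05 (SE). Between genotypes limma gave 1 under vehicle (7.7%), 3 under dexamethasone (15.4%) and 4 averaged (12.1%) at an unadjusted p under 0.05.

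**Figure D4:**
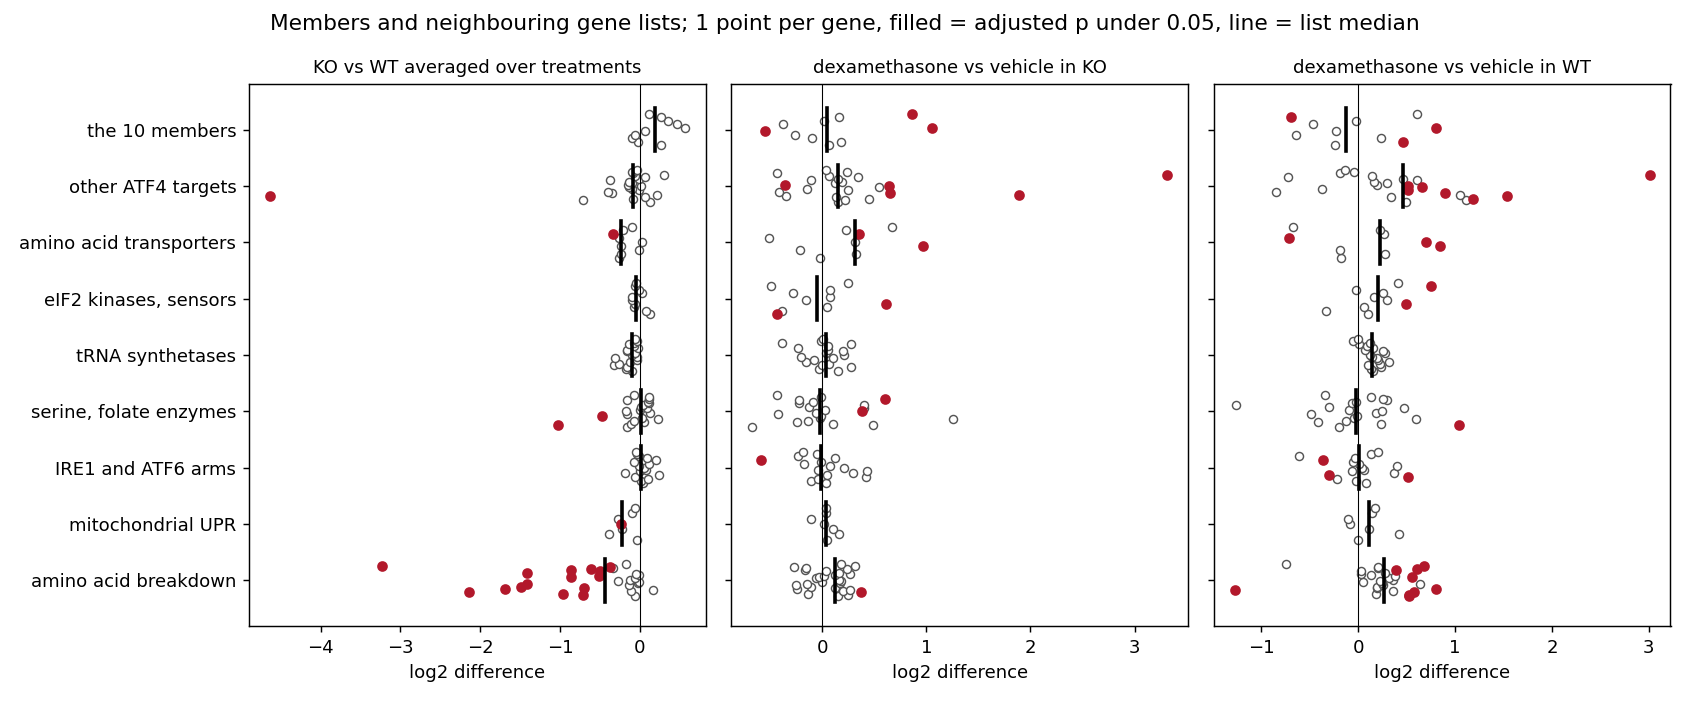
Log2 difference of each gene (points) in the 10 members and 8 related gene lists (rows) for KO against WT averaged over treatments, for dexamethasone in KO and for dexamethasone in WT, each panel on its own axis. Filled points passed an adjusted p of 0.05 and vertical lines are list medians; in the KO against WT panel 15 breakdown enzymes are filled on the low side and no member is filled.

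For each called member the closest gene by Pearson's r over the 16 arrays was Apoh for Mthfd2 (0.90), Klk1b16 for Trib3 (0.92), Eng for Ddit3 (0.91), Brpf3 for Atf4 (0.94) and Cyp2c37 for Sesn2 (0.93). The arrays share groups and slides, and the value given is the highest over all tested genes. Scaling bears on every difference. With each array centred on its median the median of all probes was 0.17 in place of -0.07 for dexamethasone in WT, and -0.14 in place of 0.05 for KO against WT under dexamethasone. The share of calls that were higher was then 80.8% in place of 44.7%, and 14.9% in place of 64.2%. For KO against WT averaged over treatments it was 15.1% in place of 41.5%. Quantile normalization gave 56.4% for dexamethasone in WT and 50.9% for KO against WT under dexamethasone, and the deposited log2 values gave 56.8% and 51.1%. Under median scaling Sesn2 differed by -0.45 (adjusted p = 0.119) and Atf4 by 0.71 (adjusted p = 0.0573) with dexamethasone in WT muscle, both with the same sign as under the scaling used here.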

How the data were processed

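RNA of 16 quadriceps samples, 4 per group by title, was measured on Agilent 4x44K arrays after whole-transcript amplification and Cy3 labelling, per the labels' protocols. Each scanner file deposited by the authors gives linear spot intensity that Feature Extraction 10.7.3.1 had background-subtracted on a grid of build mm9, per the file headers. The authors also deposited a table of log2 values of these arrays, with column medians of 6.85 to 6.87, and the sources used here do not state its normalization.

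Each array's 75th percentile was subtracted from its log2 processed signals. Control and outlier spots were dropped and spots of 1 probe averaged. A probe was tested if the scanner marked it well above background on 4 or more of the 16 arrays. Unversioned accessions were looked up in a RefSeq table of assembly GRCm38.p6, which named 24844 of 41174 probes, and promoters came from RefSeq on that build. Group means were fitted with limma 3.58.1 in R 4.3.3 over 32403 probes, with two-sided p-values adjusted by the Benjamini-Hochberg method, and the fit was tested on simulated data. The p-values of this fit measure the spread between arrays within the groups, and the number of arrays limits precision. The fit holds no term for slide, so this spread includes differences between slides as well as between animals. Slide was fitted as a fixed and as a random block (consensus correlation 0.562). Arrays alone on a slide (WT dex replicates 1 and 3, KO vehicle replicate 2) add nothing to contrasts in the fixed block.

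Beyond the members, the genes to be named were Klf15, Bcat2, Prodh and Fkbp5, up to 4 called genes per list and comparison with the largest change first, and the 3 genes most correlated with each called member, of which the closest is given. Other probes and alternatives followed the same fit, and the closing section gives their effect. The members and lists were chosen with earlier results of these data known. The files hold no mean spot signal, so normexp used the median signal. One gene that the naming rule selects is not reported here.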

Additional observations from a re-analysis of the deposited data

Results flagged for a closer look

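Asns on WT vehicle replicate 3 stood apart from the rest of its group, with a log2 level of -0.25, while the other 3 WT vehicle arrays lay between 0.11 and 0.16. Its gap to the nearest array was 0.890 of the group's range, above Dixon's 95% critical value for 4 samples. This was 1 of 52 groups examined, and chance passes that value in about 1 group in 20. On the same array the adipocyte markers summed to 82.2, the lowest of the 4 WT vehicle arrays, and this array is 1 of the 4 that the first principal component set apart.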

How the results depend on the processing

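Across 1800 values of the members under alternative settings, none that was called changed direction, 1737 kept their side of the threshold, 49 lost and 14 gained a call, and 95 uncalled values changed sign. Most of the 1737 were uncalled values that stayed uncalled. Only the members called in the main fit, 3 for dexamethasone in KO and 3 in WT, could lose a call. With 1 array left out, Atf4 in WT kept its call in 7 of 16 fits and Mthfd2 in KO in 16 of 16. In the other settings these were 6 of 14 and 13 of 14. Normexp left 0 called members for dexamethasone in KO and in WT, in place of 3 each, and moved the median of all probes to -0.27 for KO against WT under vehicle. For dexamethasone in WT, slide as a fixed block left 0 members, removal of the arrays with raised neutrophil markers left 1 (Sesn2), and removal of the 4 arrays apart on the first component left 1 (Atf4). For dexamethasone in KO, median scaling and removal of those 4 arrays each left 1 (Mthfd2). For KO against WT under dexamethasone, probes well above background on all 16 arrays gave 1 (Sesn2) and slide as a random block gave 1 (Mthfd2). For the average over treatments these settings gave 1 (Mthfd2) and 2 (Phgdh and Mthfd2). Over all probes, the calls for KO against WT under vehicle, under dexamethasone and averaged, and for dexamethasone in WT and in KO, numbered 76, 904, 525, 3873 and 3372. Median scaling gave 39, 269, 192, 3070 and 1891, normexp 18, 68, 69, 240 and 485, slide as a fixed block 25, 53, 83, 1147 and 3446, and slide as a random block 685, 1645, 1570, 5569 and 6649. Without the 4 arrays apart there were 50, 319, 207, 2663 and 2044. Quantile normalization gave 574 for KO against WT under dexamethasone, and 1 brightest probe per gene, with fewer features tested, gave 510 there and 351 averaged. The interaction, with 0 calls, had 715 with slide as a random block, 14 with probes above background on all arrays and 3 in the deposited values, no member among them. With 1 array left out the counts over all probes were 47 to 89, 523 to 971, 359 to 509, 2345 to 3932 and 2376 to 3563, and 0 to 109 for the interaction. Leaving out 1 array gave 0 to 1 called members for KO against WT under dexamethasone and for the average, 0 under vehicle, and 1 to 3 for dexamethasone in either genotype. The cause of these changes was not tested, except that a block and an array left out leave fewer degrees of freedom.

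The replicate number as a block left 1 member (Mthfd2, adjusted p = 0.0219) for dexamethasone in WT, and Trib3 lost its call in KO (adjusted p = 0.0833). Over all probes it gave 532 calls for KO against WT under dexamethasone and 276 averaged. Same-numbered arrays had correlated deviations over 0.1 in 5 of 24 pairs (r from -0.66 to 0.65), so the numbers were not taken to pair the animals. Slc7a1 with dexamethasone in KO was 0.36 by its brightest probe and -0.34 by the mean of its probes (adjusted p = 0.814). With normexp, Pdia4 was 0.039 and Bcat1 0.027 with dexamethasone in WT, in place of -0.36 and -1.27. With 4 arrays a group, the 95% interval of Chac1 for KO against WT under vehicle ran from -1.20 to 0.70, and differences within it were not excluded.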
